A study of Homo sapiens with 4 samples.

Results

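The 10 genes described are the apolipoprotein genes APOA1, APOA2, APOA4, APOB, APOC1, APOC3, APOE, APOH and APOM and the triglyceride transfer protein gene MTTP. All were chosen by name from the 39306 gene names in each deposited table. They were measured in the established line MHCC97H, which derives from a human hepatocellular carcinoma, in 2 libraries of wild-type cells (genotype HNRNPM-wild type) and 2 libraries of sh-HNRNPM cells (genotype HNRNPM-knockdown). The product of HNRNPM, heterogeneous nuclear ribonucleoprotein M, binds RNA and regulates splicing, and the design asks what its loss changes. The labels name no control hairpin for the wild-type cells, do not state the number of hairpins, give no time after knockdown and do not say whether replicates were separate cultures. The p-values therefore rest on the spread among these 4 libraries alone, and that spread may be technical.

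Apolipoproteins are the protein part of lipoproteins, the particles in which the liver and intestine send lipids into blood. One large apolipoprotein, encoded by APOB, forms the scaffold of very-low-density lipoproteins and chylomicrons, and the microsomal triglyceride transfer protein encoded by MTTP loads lipid onto it in the endoplasmic reticulum. The smaller apolipoproteins can move between particles, activate or inhibit lipid enzymes and bind receptors. Liver cells make most of these proteins, and APOA4 is made chiefly in the intestine.

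In HNRNPM knockdown cells APOA4 and APOE transcripts were higher by 4.79-fold and 3.20-fold, while APOB was at 52.6% of its wild-type level and APOM at 79.1%. APOC1, APOH, MTTP and APOA1 did not pass the test, and APOA2 and APOC3 were at or near 0 reads in all 4 libraries. The members therefore did not move as one group, and their median log2 fold change was -0.17 beside -0.03 over all genes tested. Of the 8 members tested, 2 were called higher and 2 lower (limma on log2 values, Benjamini-Hochberg adjusted p under 0.05 over 20221 genes). Among all genes tested 24.9% were called, 11.1% higher and 13.8% lower. Higher calls were 44.5% of all calls, and 55.5% with the RPKM values as deposited. The 2 groups of libraries did not overlap in 7 of the 8 tested members, against 67.6% of all tested genes. APOA4 and APOE were called under each of the 16 alternatives tried, while APOB lost its call under 4 and APOM under 8.

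Levels are in RPKM, reads per kilobase of annotated exon per 1000000 assigned reads, so they can be compared between genes. Fold changes were taken after scaling the libraries for composition, on log2(RPKM + 0.1), which understates changes at low levels. Assigned reads recovered from the tables came to 18317579 and 19659106 in wild-type replicates 1 and 2, and to 12708165 and 11498663 in knockdown replicates 1 and 2. HNRNPM itself was measured at 51.3 and 51.6 RPKM in wild-type cells and at 21.8 and 20.4 RPKM in knockdown cells (log2 fold change -1.35 ± 0.07 (SE), limma adjusted p = 0.00270), which goes with the labels. For a single gene, an exact permutation test on 2 + 2 libraries has a smallest p of 0.33, so the calls lean on the spread that limma pools over genes.

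The promoters of APOA4, APOE and APOC1 are shown because APOA4 and APOE were the members that rose and APOC1, the neighbour of APOE, did not pass the test. Each is the 300 bases from 250 before to 50 after a transcript start in RefSeq (GRCh38.p14), 5′ to 3′ on the gene's strand. The windows are chr11:116823255-116823554 on the minus strand for APOA4, chr19:44905546-44905845 on the plus strand for APOE and chr19:44914422-44914721 on the plus strand for APOC1. Capitals mark matches to the 5 motifs searched.
APOA4 promoter: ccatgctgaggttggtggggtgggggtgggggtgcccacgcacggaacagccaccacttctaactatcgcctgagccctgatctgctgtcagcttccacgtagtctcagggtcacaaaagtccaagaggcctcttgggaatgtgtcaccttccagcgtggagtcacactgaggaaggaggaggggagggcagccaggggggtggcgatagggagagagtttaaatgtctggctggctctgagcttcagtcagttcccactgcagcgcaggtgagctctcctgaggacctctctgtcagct
APOE promoter: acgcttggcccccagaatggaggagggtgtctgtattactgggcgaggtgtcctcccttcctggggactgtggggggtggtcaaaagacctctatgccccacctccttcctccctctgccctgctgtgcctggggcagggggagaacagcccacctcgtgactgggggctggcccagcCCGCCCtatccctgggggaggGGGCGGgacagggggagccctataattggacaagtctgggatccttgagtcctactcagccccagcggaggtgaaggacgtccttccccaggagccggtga
APOC1 promoter: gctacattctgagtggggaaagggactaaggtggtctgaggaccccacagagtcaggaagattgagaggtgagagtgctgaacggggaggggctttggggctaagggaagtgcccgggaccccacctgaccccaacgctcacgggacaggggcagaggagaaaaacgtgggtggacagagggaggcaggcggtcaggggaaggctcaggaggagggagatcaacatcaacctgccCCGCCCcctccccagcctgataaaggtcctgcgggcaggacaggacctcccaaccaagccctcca

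The motifs were searched on both strands as exact letters, and none overlaps another. They were the TATA box TATAAA (found in 11.5% of 35116 RefSeq promoter windows of this length), the GC box GGGCGG (45.0%), the nuclear receptor half-site AGGTCA (13.8%), a core of the HNF4 site, CAAAGTCCA (0.384%), and the AP-1 site TGAGTCA (4.95%). The APOE window shown held 2 GC boxes, 1 on each strand, and the other 2 RefSeq windows of APOE, which start at 44905771 and 44906151, held none of the 5 motifs. The APOC1 window held 1 GC box, and the APOA4 window held none of the 5 motifs. The motifs were chosen after these sequences were seen, and a match only describes the letters. RefSeq windows were matched for 7 of the 10 members, with APOA1, APOB and APOC3 unmatched.

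**Figure D1:**
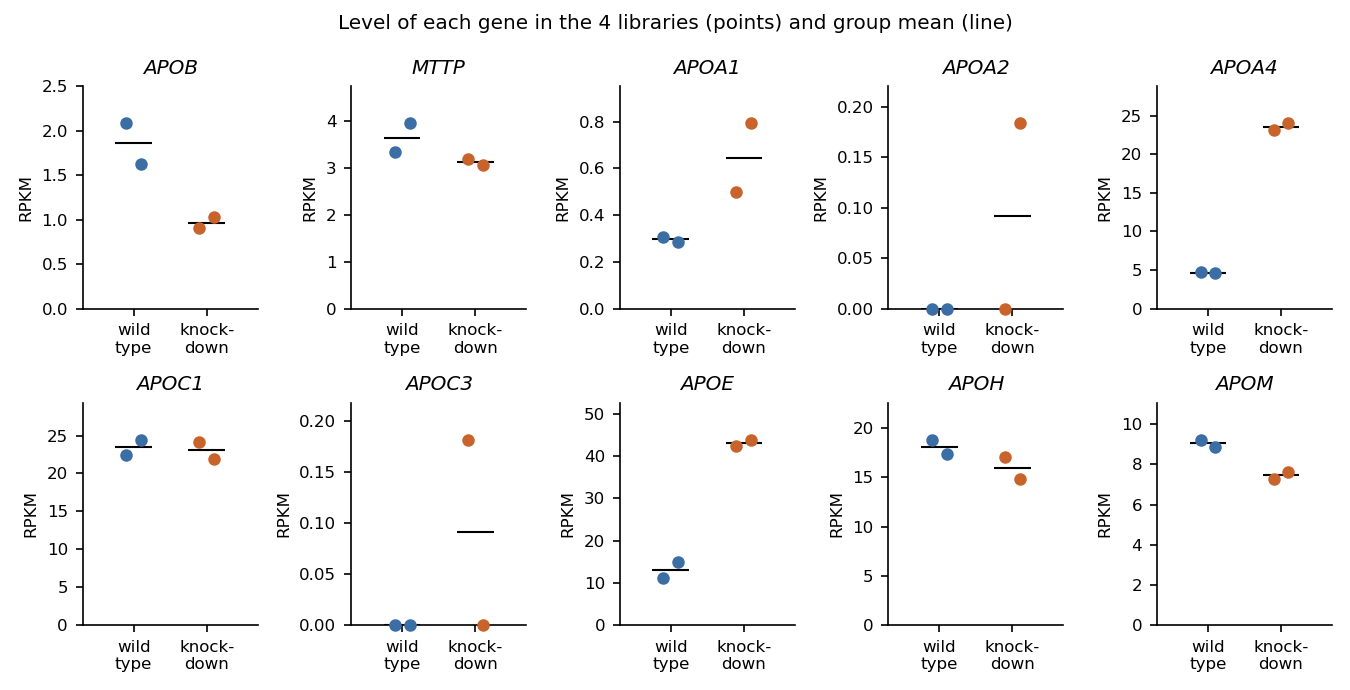
RPKM (vertical axis, from 0, a scale of its own in each panel) of each of the 10 genes in the 2 wild-type libraries (blue) and the 2 knockdown libraries (orange), with a line at each group's mean. APOA4 and APOE are higher and APOB and APOM lower in both knockdown libraries, the points of APOC1 overlap, and APOA2 and APOC3 are at 0 in 3 of 4 libraries each.

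The assembly genes were lower in knockdown cells or did not pass. APOB (chromosome 2, positions 21001429 to 21044073, minus strand, 14828 bp of exon, GRCh38) was measured at 2.09 and 1.63 RPKM in wild-type cells and at 0.902 and 1.03 RPKM in knockdown cells, from 170 to 567 reads. Both knockdown libraries lay below both wild-type libraries. Its log2 fold change was -0.93 ± 0.18 (SE, n = 2 against 2, limma adjusted p = 0.0206), with a 95% interval for the fold from 0.385 to 0.718. The call was lost without wild-type replicate 1 (log2 fold change -0.77, limma adjusted p = 0.0650), without knockdown replicate 1 (-0.81, 0.0921) and without knockdown replicate 2 (-1.04, 0.0570). MTTP (chromosome 4, positions 99563761 to 99623999, plus strand) was measured at 3.33 and 3.95 RPKM in wild-type cells and at 3.19 and 3.06 RPKM in knockdown cells. The groups did not overlap, but the gap between them was smaller than the difference between the 2 wild-type libraries. The log2 fold change of MTTP was -0.27 ± 0.13 (limma adjusted p = 0.183), with a 95% interval of the fold from 0.662 to 1.04. The ratio of MTTP to APOB in RPKM was 1.59 and 2.42 in wild-type and 3.54 and 2.97 in knockdown cells. MTTP transcripts thus outnumbered those of APOB per kilobase in all 4 libraries, with the higher ratios in the knockdown cells.

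Among the A-type apolipoproteins, which are parts of high-density lipoproteins and chylomicrons, APOA4 alone had over 100 reads in every library. APOA4 (chromosome 11, positions 116820700 to 116823306, minus strand, 1473 bp of exon), a satiety-linked apolipoprotein of chylomicrons, was measured at 4.67 and 4.59 RPKM in wild-type cells and at 23.1 and 24.0 RPKM in knockdown cells. The replicates of each group lay close together and the groups lay far apart. Its log2 fold change was 2.26 ± 0.08 (limma adjusted p = 0.00156), with a 95% interval of the fold from 4.20 to 5.46. Over the 16 alternatives the log2 fold change ranged from 2.07 to 2.32. Among 20221 tested genes, 26 including APOA4 had a log2 fold change at least as high. APOA1 (chromosome 11, positions 116835751 to 116837950, minus strand), the main protein of high-density lipoprotein, was measured at 0.307 and 0.286 RPKM in wild-type cells and at 0.497 and 0.794 RPKM in knockdown cells, which are 8, 8, 9 and 13 reads. Both knockdown values were higher, but so few reads left a wide 95% interval of the fold, 1.15 to 2.75, and APOA1 did not pass (log2 fold change 0.83 ± 0.25, limma adjusted p = 0.0629). APOA1 shares 123 bp of exon (8.64%) with APOA1-AS on the other strand, so some of these reads may belong to that transcript. APOA2 (chromosome 1, positions 161222292 to 161223631, minus strand), the second protein of high-density lipoprotein, had 2 reads in knockdown replicate 2 and 0 reads in each of the other libraries. At these depths a count of 0 allows up to 0.173 and 0.161 RPKM in wild-type replicates 1 and 2 (3 reads, counting error only), so no fold is given.

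**Figure D2:**
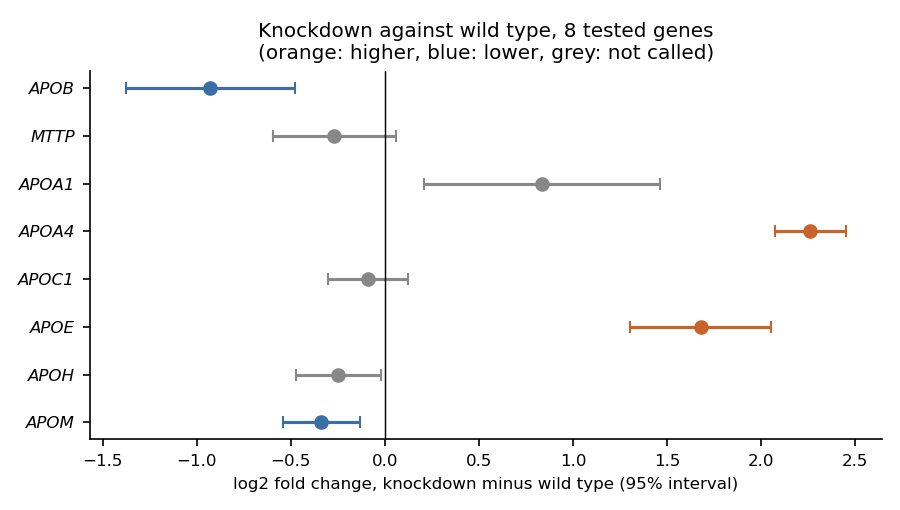
Log2 fold change, knockdown minus wild type, of the 8 tested genes (points), with limma's 95% interval (bars) and a line at 0. APOA4 at 2.26 and APOE at 1.68 lie to the right, APOB at -0.93 and APOM at -0.34 to the left, and the 4 grey genes were not called.

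The C- and E-type apolipoproteins, which guide the lipolysis and receptor uptake of particles, differed from each other. APOE (chromosome 19, positions 44905754 to 44909393, plus strand, 2191 bp of exon), a ligand of the LDL receptor family, was measured at 11.1 and 14.9 RPKM in wild-type cells and at 42.3 and 43.9 RPKM in knockdown cells, from 444 to 1179 reads. The wild-type libraries differed from each other more than the knockdown libraries did, and the groups did not overlap. The log2 fold change of APOE was 1.68 ± 0.15 (limma adjusted p = 0.00428), with a 95% interval of the fold from 2.47 to 4.14. It was 1.45 without wild-type replicate 1 and 1.90 without wild-type replicate 2, and it stayed called in both cases. APOC1 (chromosome 19, positions 44914247 to 44919349, plus strand), a small apolipoprotein that inhibits lipoprotein uptake, was measured at 22.4 and 24.5 RPKM in wild-type cells and at 24.2 and 21.9 RPKM in knockdown cells. The groups overlapped, the log2 fold change was -0.09 ± 0.09 (limma adjusted p = 0.476), and the fold had a 95% interval of 0.811 to 1.09. Of the exons of APOC1, 43.2% (532 bp) are shared with CTB-129P6.7, a transcript of the same strand, so its value may be incomplete or hold reads of that gene. APOC3 (chromosome 11, positions 116829706 to 116833072, plus strand), an inhibitor of lipolysis, had 2 reads in knockdown replicate 1 and 0 reads elsewhere. A count of 0 allows up to 0.189 and 0.176 RPKM in the wild-type libraries, so no fold is given.

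APOH and APOM, which belong to other protein families than the exchangeable apolipoproteins, were at 84.3% and 79.1% of their wild-type levels. Only APOM was called. APOH (chromosome 17, positions 66212033 to 66256525, minus strand) encodes beta-2-glycoprotein I, which binds anionic phospholipids. It was measured at 18.9 and 17.4 RPKM in wild-type cells and at 17.1 and 14.9 RPKM in knockdown cells. The nearest values of the groups lay close together, and APOH did not pass (log2 fold change -0.25 ± 0.09, limma adjusted p = 0.0996, 95% interval of the fold 0.721 to 0.985). APOM (chromosome 6, positions 31652416 to 31658210, plus strand) encodes a lipocalin of high-density lipoprotein that carries sphingosine 1-phosphate. It was measured at 9.24 and 8.89 RPKM in wild-type cells and at 7.30 and 7.65 RPKM in knockdown cells. Both knockdown libraries were lower, and the log2 fold change of -0.34 ± 0.08 passed (limma adjusted p = 0.0367, 95% interval of the fold 0.686 to 0.912). The APOM call was lost without wild-type replicate 1 (limma adjusted p = 0.0902), wild-type replicate 2 (0.0724), knockdown replicate 1 (0.221) or knockdown replicate 2 (0.115), and with the values as deposited (-0.27, 0.0622). APOM shares 136 bp of exon with BAG6 on the other strand. BAG6 had a log2 fold change of -0.27 ± 0.07 (limma adjusted p = 0.0381), a call lost under 10 of 16 alternatives, each left-out library among them, and no source used here gives a strand setting for the counts, so reads in the shared stretch cannot be assigned.

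The order of the levels changed with the 2 genes that rose. In wild-type cells it ran from APOC1 (23.5 ± 1.43 RPKM, SD, n = 2) through APOH (18.1 ± 1.02), APOE (13.0 ± 2.72), APOM (9.06 ± 0.251), APOA4 (4.63 ± 0.0544), MTTP (3.64 ± 0.439) and APOB (1.86 ± 0.324) to APOA1 (0.296 ± 0.0148). The ranges of neighbours in this order did not overlap, apart from APOA2 and APOC3, both at 0. In knockdown cells APOE came first (43.1 ± 1.13 RPKM), followed by APOA4 (23.6 ± 0.635) and APOC1 (23.0 ± 1.60), whose ranges overlapped. The place of APOC1 in either group may depend on how reads in the exons shared with CTB-129P6.7 were counted. APOH, APOM, MTTP, APOB and APOA1 followed in the same order as in wild-type cells, with ranges that did not overlap. Among all tested genes, the level of APOE stood above 82.1% in wild-type and 94.9% in knockdown cells, that of APOA4 above 57.8% and 90.1%, and that of APOB above 33.8% and 19.8%.

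**Figure D3:**
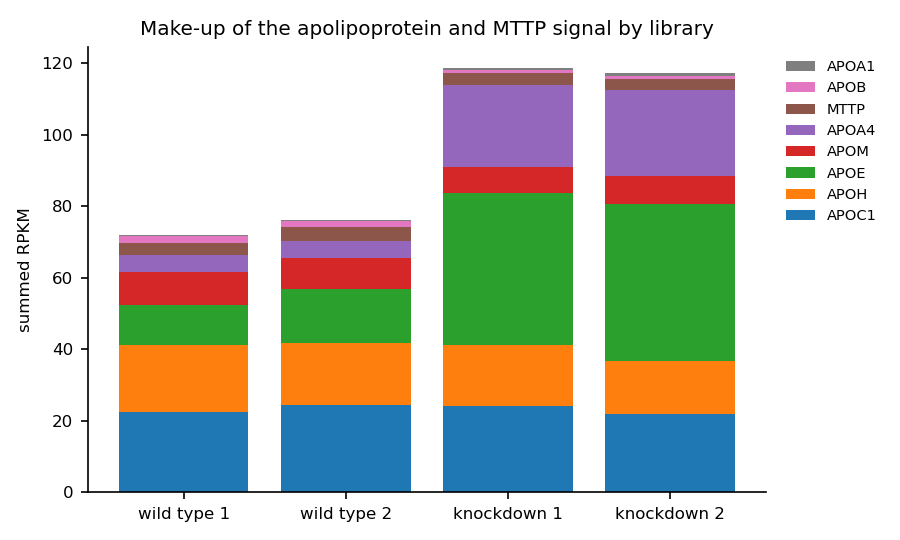
Summed RPKM of the genes (vertical axis, from 0) in each of the 4 libraries, split by gene (APOA2 and APOC3, under 0.2 RPKM, are not drawn). The sum is 72.0 and 76.1 in wild-type and 119 and 117 in knockdown libraries, and the APOE and APOA4 segments are the ones that widen.

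The summed RPKM of the 10 genes was 72.0 and 76.1 in the wild-type libraries and 119 and 117 in the knockdown libraries. APOE made up 15.4% and 19.6% of this sum in wild-type cells and 35.6% and 37.4% in knockdown cells. APOA4 made up 6.49% and 6.03% in wild-type cells and 19.5% and 20.5% in knockdown cells. In reads the 10 genes were a small part of each library, 0.0149% and 0.0153% in wild-type and 0.0223% and 0.0224% in knockdown cells. The larger sum thus rested on the 2 genes that rose, while the summed value of the other genes did not rise with them.

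APOA1, APOA4 and APOC3 lie in one cluster of apolipoprotein genes and APOE and APOC1 in another. In each cluster 1 member rose, and the other members did not pass or had too few reads to be tested. On chromosome 11, APOC3 starts 6399 bp beyond APOA4 and APOA1 lies 12444 bp from APOA4. Near APOA4, BUD13, ZPR1, the antisense transcript APOA1-AS and the kinase gene SIK3 had log2 fold changes of 0.08, 0.35, 0.44 and 0.08, none of which passed (limma adjusted p = 0.575, 0.0563, 0.681 and 0.659). On chromosome 19, APOE and APOC1 are 4853 bp apart on the same strand. The ratio of APOE to APOC1 in RPKM was 0.493 and 0.609 in wild-type cells and 1.75 and 2.01 in knockdown cells. By RPKM, APOC1 was thus the higher of the pair in wild-type cells and APOE in knockdown cells. Of the APOC1 exons 43.2% are shared with CTB-129P6.7. The size of the ratio, and which of the pair is higher, may therefore depend on how shared reads were counted. The ratio does not depend on how libraries are scaled, and a two-sided exact permutation test of it cannot go below p = 0.33. Next to APOE on its other side, TOMM40, a mitochondrial import channel, had a log2 fold change of -0.32 ± 0.06 (limma adjusted p = 0.0232). The TOMM40 call was lost without a filter on low values (limma adjusted p = 0.0561) and without the mean-variance trend (0.0801). It was also lost without knockdown replicate 1 (log2 fold change -0.27) or 2 (-0.37). CLPTM1, beyond APOC1, had -0.57 ± 0.08 (limma adjusted p = 0.00817), lost without knockdown replicate 1 (0.0718). Within 50 kb of the 10 members 28 other genes were tested, of which 1 was higher, 5 were lower and 22 were not called. Among all genes tested 24.9% were called. ABHD16A and XXbac-BPG32J3.20, which are among the lower genes, overlap in position near APOM and may not be separate changes.

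**Figure D4:**
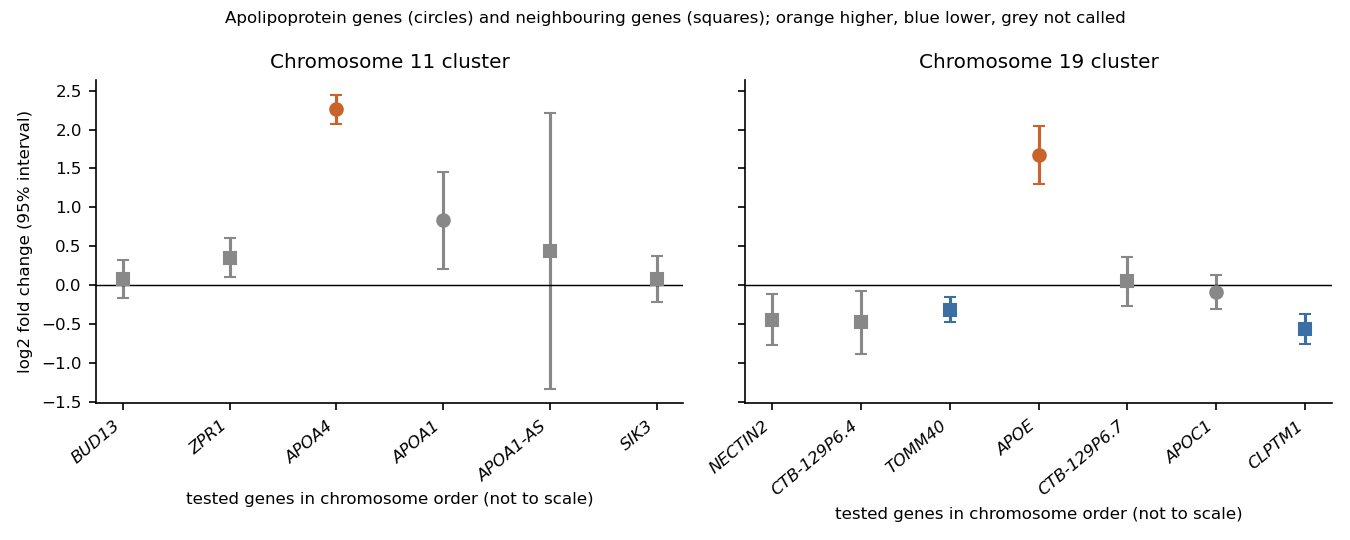
Log2 fold change, knockdown minus wild type, with limma's 95% interval (vertical axis) for the tested genes of both apolipoprotein clusters in chromosome order (horizontal axis, not to scale), circles for apolipoprotein genes and squares for other genes. APOA4 at 2.26 and APOE at 1.68 stand above neighbours that lie between -0.57 and 0.83.

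Markers of cell types were lower or higher alongside these changes, and their part in them was not tested. Of all genes tested 24.9% were called, 11.1% higher and 13.8% lower. Of 12 hepatocyte markers 9 were tested, of which 4 fell and 0 rose by limma (1 was higher at an unadjusted p under 0.05). Their summed level was 40.4 and 40.8 RPKM in wild-type and 24.9 and 26.8 RPKM in knockdown cells, and AMBP, ALB and FGB, which encode plasma proteins, had log2 fold changes of -1.84, -1.72 and -1.31 (limma adjusted p = 0.00285, 0.00366 and 0.00524). The hepatocyte markers TTR, HP and CPS1 were under 0.5 RPKM in every library. Of the 8 enterocyte markers listed there, 5 were tested, with 2 lower and 0 higher, and their summed level was 79.0 and 81.7 RPKM in wild-type and 31.9 and 34.4 RPKM in knockdown cells. Most of that sum was CDH17, an intestinal cadherin (74.3 ± 2.40 against 28.4 ± 1.99 RPKM), while the enterocyte gene FABP2 stayed under 0.2 RPKM in all libraries. Of 8 macrophage markers 3 were tested, with 1 higher and 1 lower, and PTPRC, CD163 and MARCO were under 0.1 RPKM in every library. Their sum, mostly CD68, was 48.1 and 59.4 RPKM in wild-type and 65.1 and 63.3 RPKM in knockdown cells. Of 9 tested fibroblast and endothelial markers 3 were higher and 2 lower, with sums of 10.8 and 11.7 RPKM against 10.5 and 10.8 RPKM. Of 4 cholangiocyte markers 3 were higher, KRT7, KRT19 and SOX9, with sums of 190 and 181 RPKM against 284 and 296 RPKM. All libraries are of the line MHCC97H, so the markers do not show that these cell types were present. Fewer cells expressing a marker and less of its RNA per cell cannot be told apart in such bulk libraries.

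The other genes of lipoprotein metabolism were described by lists chosen with earlier results of these data known. Of 95 list genes tested, 29 were lower and 12 higher, beside 24.9% called among all genes. With 1 or the other knockdown library left out, fewer list genes were called, and so were fewer of all genes. Among receptors and uptake factors 10 of 13 tested genes were lower and 0 higher by limma, which is 76.9% called beside 24.9% of all tested genes. At an unadjusted p under 0.05 also 0 were higher, and the median log2 fold change was -0.56. SDC1, a heparan sulfate proteoglycan that takes up remnant particles, fell from 103 ± 11.3 to 51.3 ± 0.490 RPKM, LRP8, an APOE receptor, from 17.3 ± 1.52 to 9.03 ± 0.632 RPKM, and SORL1, a sorting receptor that binds APOE, from 3.13 ± 0.205 to 1.34 ± 0.0434 RPKM (limma adjusted p = 0.00434, 0.00533 and 0.00569). Leaving out 1 or the other knockdown library left fewer lower receptor genes, while the calls among all genes fell as well. No receptor gene was called higher in either case or by limma-voom.

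Genes of plasma lipid transfer and lipolysis moved in both directions, with 6 of 13 lower and 2 higher and a median log2 fold change of -0.36. That is 61.5% called, beside 24.9% of all tested genes. PLTP, the phospholipid transfer protein, fell from 22.7 ± 0.0953 to 12.7 ± 0.0247 RPKM (log2 fold change -0.90 ± 0.07, limma adjusted p = 0.00364). The sterol exporters ABCA1, which lipidates APOA1 and APOE, and ABCG1 had log2 fold changes of -1.43 ± 0.13 and -3.03 ± 0.25. That of ABCG1, which had 14 and 16 reads in the knockdown libraries, was -1.48 with a pseudocount of 1 and -3.52 by limma-voom, and it was called in both. In contrast ANGPTL4, an inhibitor of lipoprotein lipase, rose from 48.7 ± 0.837 to 95.1 ± 3.96 RPKM (log2 fold change 0.90 ± 0.07, limma adjusted p = 0.00379).

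Among assembly and secretion partners 9 of 27 were lower and 5 higher, with a median log2 fold change of -0.17. That is 51.9% called, beside 24.9% of all tested genes. MIA2, a transport factor for lipoproteins at endoplasmic reticulum exit sites, fell from 5.77 ± 0.776 to 2.79 ± 0.0609 RPKM (log2 fold change -1.08 ± 0.13, limma adjusted p = 0.00658). ACSL3, an acyl-CoA synthetase, had a log2 fold change of -0.94 ± 0.10, and TMEM41B, a lipid scramblase, and AUP1, a lipid droplet protein, had -0.67 ± 0.09 and -0.43 ± 0.06. The calls of TMEM41B and AUP1 were lost without knockdown replicate 1 (limma adjusted p = 0.0552 and 0.103), and that of AUP1 also without knockdown replicate 2 (0.0743). The list had fewer than these 14 calls without wild-type replicate 2, without knockdown replicate 1 or without knockdown replicate 2, in the latter 2 cases with none higher. Calls among all genes also fell in these fits. Among other apolipoproteins 1 of 11 was higher and 1 lower, which is 18.2% called beside 24.9% of all tested genes. APOL2, of the intracellular apolipoprotein L family, rose from 18.8 ± 0.909 to 33.9 ± 1.64 RPKM, and CLU, or apolipoprotein J, fell from 60.5 ± 6.21 to 38.8 ± 0.605 RPKM, a call lost without knockdown replicate 1 (limma adjusted p = 0.0569).

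Among transcription regulators of apolipoprotein genes 4 of 27 were higher and 3 lower, with a median log2 fold change of 0.07. That is 25.9% called, near the 24.9% of all tested genes. CREB3L3, a membrane-bound factor that activates APOA4, was measured at 16.4 and 21.5 RPKM in wild-type and at 36.1 and 36.7 RPKM in knockdown cells (log2 fold change 0.89 ± 0.14, limma adjusted p = 0.0113). Its call was lost without a filter on low values (limma adjusted p = 0.0676) and without knockdown replicate 1 (log2 fold change 0.93) or 2 (0.85). CEBPB rose from 44.8 ± 2.05 to 75.1 ± 0.469 RPKM, and SREBF1, a regulator of lipid synthesis genes, fell from 27.3 ± 3.05 to 10.3 ± 0.418 RPKM (limma adjusted p = 0.00462 and 0.00331). HNF4A, the hepatocyte regulator of many apolipoprotein genes, is named after its values were seen and did not pass (6.41 ± 0.142 against 7.68 ± 0.257 RPKM, log2 fold change 0.19 ± 0.08, limma adjusted p = 0.143). The 7 calls of this list rose to 15 of 27 by limma-voom, beside 7232 of 20221 among all genes. With a stricter filter on low values they rose to 16 of 25, beside 6070 of 14503 among all genes. In both fits the called share of the list was above that of all genes. With 1 or the other knockdown library left out, both the list and all genes had fewer calls. Of 6 genes of APOB mRNA editing and its RNA-binding partners, 4 were tested and 0 were called by limma. Of these 4, 1 was lower at an unadjusted p under 0.05, while limma-voom called 1 higher and 1 lower. KHSRP and SYNCRIP, the most abundant of them, had log2 fold changes of -0.11 ± 0.06 and -0.18 ± 0.09 (limma adjusted p = 0.233 and 0.193).

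**Figure D5:**
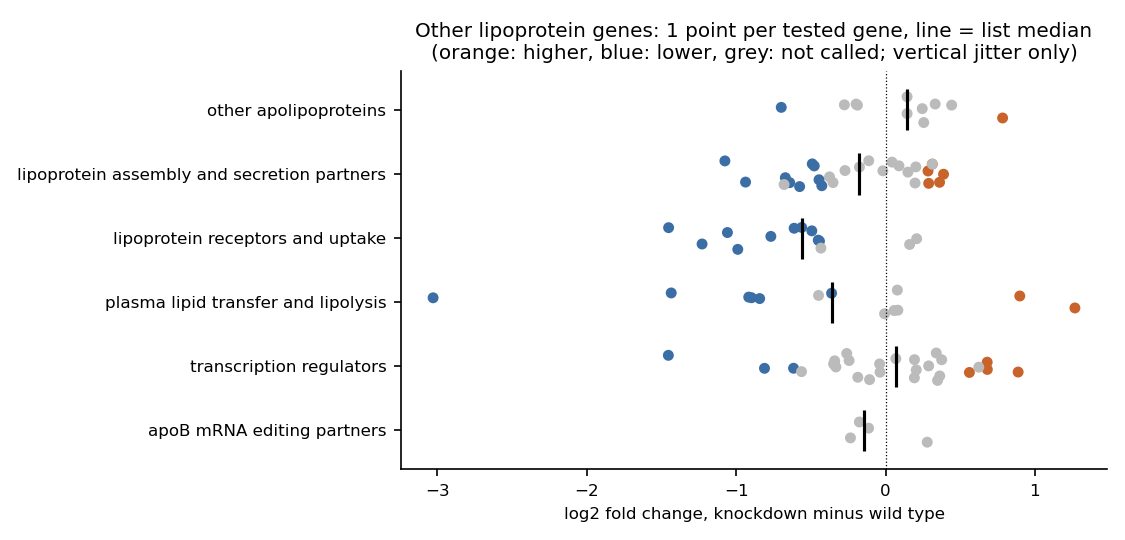
Log2 fold change, knockdown minus wild type (horizontal axis), of each tested gene (points) in the 6 lists of other lipoprotein genes, with the list median as a line. The called receptor genes all lie to the left of 0, with a list median of -0.56, and the other lists lie on both sides.

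Profiles over the 4 libraries were compared by Euclidean distance of log2 values centred on the wild-type mean. Such a distance picks genes of like fold change, so the similar folds below follow from the choice. The tested genes closest to APOA4 were MAP7D2 (distance 0.198) and LBP (0.233). MAP7D2, a microtubule-associated protein gene, had a log2 fold change of 2.27 and LBP, which encodes an acute-phase lipopolysaccharide-binding protein, one of 2.11. Closest to APOE were IGF2 (0.169) and KCNQ1OT1_3 (0.172), with log2 fold changes of 1.62 and 1.58. LBP had 1 read in each wild-type library and IGF2 had 7 to 38 reads per library, so their folds and their likeness depend on the pseudocount. KCNQ1OT1_3 had 10 to 26 reads per library, so its fold and its likeness also rest on few reads. The log2 fold change of LBP was 0.50 with a pseudocount of 1 and 3.62 with 0.01, and that of IGF2 was 0.43 and 2.36, with the IGF2 call lost without a filter (limma adjusted p = 0.0913).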

How the data were processed

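RNA of 4 MHCC97H libraries, 2 wild type and 2 HNRNPM knockdown, was sequenced, and the authors deposited 1 table of RPKM values per library. The submitters' processing notes name Trimmomatic 0.36, featureCounts, Subread 1.5.1, edgeR 3.12.1, StringTie 1.3.2 and the genome build mm9. The gene coordinates in the tables are human: of 26367 names found once in GENCODE 29 (GRCh38), 99.9% lie on the same chromosome and 93.6% have the same start and end. No source used here gives the strand setting of the counting.

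RPKM times exon length (kb) gave the same sum in each library, and dividing by the value of 1 read gave whole reads (within 0.01 read) for 100% of values. Deposited RPKM were divided by TMM factors (0.984, 0.972, 1.03 and 1.02, trims of 30% and 5%) and the values log2(RPKM + 0.1) entered limma 3.58.1 (R 4.3.3) with a mean-variance trend and Benjamini-Hochberg adjustment at 0.05. Genes needed 10 reads' worth in 2 libraries and 15 reads in all, and 20221 passed. The code was tested on simulated data, where the share of false calls came out above the nominal level, from genes with few reads.

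The members and lists were chosen with earlier results of these data known. Named genes are the members, HNRNPM, up to 4 called genes with the smallest adjusted p in each list (the 2 most abundant where none was called), the adjoining genes of the 2 clusters, and for each called member with a log2 fold change of 1 or more in size the 2 nearest profiles. HNRNPM knockdown was compared with wild type only. List genes without a matching name (SAA4, LPL, NR0B2, CDX1, SI, C1QA, C1QB and CFTR) were not analysed here. Some genes that the naming rule selects are not reported here. Floors cover counting error only. Alternatives were other scalings, pseudocounts and filters, limma-voom on the recovered reads, no trend, robust moderation, a replicate block, removal of a length trend, and leaving out each library.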

Additional observations from a re-analysis of the deposited data

How the results depend on the processing

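APOA4 and APOE were called under each of the 16 alternatives, with log2 fold changes from 2.07 to 2.32 and from 1.45 to 1.90. No called result was reversed. Without a filter on low values (39306 genes tested) limma called 1806 genes, 2 members and 20 of the genes in the lipoprotein lists, and APOB (-0.93, adjusted p = 0.0927) and APOM (-0.34, 0.0761) were lost. APOM was also lost with RPKM as deposited (-0.27, 0.0622), with upper-quartile factors (-0.30, 0.0537) and without the mean-variance trend (-0.34, 0.0744). Leaving out each library in turn gave 1309 to 3756 called genes, 2 to 3 members and 15 to 37 list genes, with log2 fold changes of -1.09 to -0.77 for APOB and of -0.40 to -0.28 for APOM. In these fits the lone library of a group was assumed to vary like the other group. Beyond the larger number of genes tested or the smaller number of libraries, the cause of these losses was not tested. With the replicate number as a block, limma called 5129 genes, 4 members and 41 list genes, and the call of none of the 8 tested members changed. The labels give the groups shared replicate numbers only: the differences between replicates 1 and 2 correlated across genes by r = 0.0628 between the groups. APOA1 had too few reads to be tested when a library was left out or the filter was stricter.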

Other observations

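Of the genes within 50 kb of a member but outside both clusters, 4 were called by limma, and 2 of them are given here after their values were seen. CEP112, a centrosomal protein gene beside APOH, was measured at 1.40 and 1.45 RPKM in wild-type and at 2.41 and 2.23 RPKM in knockdown cells (log2 fold change 0.61 ± 0.13, limma adjusted p = 0.0282). Its call was lost without a filter on low values (limma adjusted p = 0.0865) and without any 1 of the libraries (log2 fold change from 0.58 to 0.64). ABHD16A, a phospholipid hydrolase gene near APOM, was measured at 2.96 and 3.54 RPKM in wild-type and at 1.74 and 1.84 RPKM in knockdown cells (log2 fold change -0.88 ± 0.15, limma adjusted p = 0.0133). The ABHD16A call was lost without a filter on low values (limma adjusted p = 0.0604) and without knockdown replicate 1 (log2 fold change -0.81).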
